A study of Mus musculus with 6 samples.

Results

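The ATG8 family and the ATG4 proteases were followed at the transcript level in C2C12 cells, an established line of mouse myoblasts whose strain is given as C3H. The members were chosen by name: Map1lc3a, Map1lc3b, Gabarap, Gabarapl1 and Gabarapl2 of the ATG8 family, and Atg4a, Atg4b, Atg4c and Atg4d of the protease family. All 9 members were found among the 22988 rows used of each RNA sequencing table, but only 8 had a row of their own. Gabarap was listed in 1 combined row with Ctdnep1, a nuclear envelope phosphatase gene on the same chromosome, so the value of that row cannot be assigned to either gene.

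Polyadenylated RNA was sequenced from 3 groups of myoblasts with 1 library each. The first group received the siRNA called siNS and was kept for 4 h in a balanced salt solution, HBSS (the starved library). The second received siRNA against Foxk1, a forkhead transcription factor, and was not starved (the knockdown library). The third received siNS, was not starved and served as the control library. HBSS contains neither serum nor amino acids, both of which the growth medium supplies. The design asked how expression differs from that of fed control cells when the cells are starved or when Foxk1 is depleted.

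ATG8 proteins are ubiquitin-like proteins that are attached to the lipid phosphatidylethanolamine on the growing autophagosome membrane, where they recruit cargo receptors and help the vesicle to expand and to fuse with the lysosome. Mammals have an LC3 branch and a GABARAP branch. ATG4 proteases act at both ends of this cycle: they trim the newly made ATG8 protein so that a glycine is exposed for conjugation, and they later release it from lipid. In skeletal muscle, LC3 and GABARAP genes are known targets of FoxO factors during atrophy, and Foxk factors bind related DNA sequences.

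Promoters of 3 members are shown because their transcripts gave the contrast described below: Gabarapl1 was far higher in the starved library, Map1lc3b was higher in both the starved and the knockdown library, and Gabarapl2 had overlapping intervals in both. The sequences are the 250 bases before the annotated start, 5′ to 3′ on the plus strand, from RefSeq on build GRCm38.p6. Capitals mark TAAACA, a short forkhead core on either strand; Gabarapl2 and Map1lc3b held none. The positions are chr6:129532942-129533191 for Gabarapl1, chr8:121590188-121590437 for Map1lc3b and chr8:111940453-111940702 for Gabarapl2.
Gabarapl1: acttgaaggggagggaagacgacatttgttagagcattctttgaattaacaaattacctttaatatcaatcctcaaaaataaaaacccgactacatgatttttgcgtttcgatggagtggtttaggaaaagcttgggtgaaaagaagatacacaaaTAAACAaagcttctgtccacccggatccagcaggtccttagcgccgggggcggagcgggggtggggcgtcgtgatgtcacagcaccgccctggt
Map1lc3b: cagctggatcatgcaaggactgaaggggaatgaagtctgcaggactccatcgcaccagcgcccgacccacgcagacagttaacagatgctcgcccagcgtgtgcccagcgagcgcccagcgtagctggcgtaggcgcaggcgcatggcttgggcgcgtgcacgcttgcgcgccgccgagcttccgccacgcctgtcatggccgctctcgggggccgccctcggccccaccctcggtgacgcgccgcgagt
Gabarapl2: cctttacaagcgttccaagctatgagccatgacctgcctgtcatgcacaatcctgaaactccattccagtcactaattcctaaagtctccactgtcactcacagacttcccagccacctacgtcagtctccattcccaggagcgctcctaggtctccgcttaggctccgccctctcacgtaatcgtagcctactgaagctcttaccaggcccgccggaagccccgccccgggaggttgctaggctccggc

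Of the 9 members, 8 had at least 1 promoter in the RefSeq table, 10 promoters in all. Map1lc3a had none there, so no motif was searched for it. The forkhead core GTAAACA, searched on both strands, was in none of the 10, and 3.17% of all 32851 promoters held it. The shorter TAAACA, which lies inside GTAAACA and was added after the sequences were seen, was found in Gabarapl1, beginning 94 bases before the start, and in 1 of the promoters of Atg4a, beginning 134 bases before it. Of all promoters, 12.0% held TAAACA. The starved level of Gabarapl1 was 3.08 times the control, and that of Atg4a 0.758 times, with overlapping intervals. A link between TAAACA and the levels was not tested. Neither CACGTG, the E-box core of the CLEAR element that TFEB binds (6.02% of all promoters), nor TGATGNAA, a composite element of C/EBP and ATF factors (3.45%), was in any of the 10. A match or its absence in these windows is a description of letters and does not show binding. The promoter of Gabarapl1 had a GC content of 46.8%, that of Gabarapl2 57.2% and that of Map1lc3b 69.6%, where the median of all promoters was 52.4%.

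Levels are in FPKM, fragments scaled for transcript length and for the number of mapped fragments, given by the authors with a 95% interval in brackets here. With 1 library per group there is no spread between replicates, no test and no standard deviation, and read depth is unknown. Intervals of 2 libraries that do not overlap are called apart, a statement on the libraries alone. A log2 fold change is log2((FPKM + 1)/(control FPKM + 1)), which understates the change of low genes, and a ratio is of the plain FPKM. Its bracketed limits carry the authors' intervals to the ratio on the log scale. In bulk RNA, fewer cells that carry a transcript and less of it per cell cannot be told apart.

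Foxk1 itself was at 16.1 FPKM (13.3 to 18.9) in the starved library, 5.15 FPKM (4.29 to 6.02) in the knockdown library and 9.09 FPKM (7.76 to 10.4) in the control library, higher apart in the first and lower apart in the second. The summed FPKM of all rows was 527687 in the starved, 562507 in the knockdown and 566814 in the control library, and about the same number of rows, 11171, 11138 and 11100, reached 1 FPKM. Of the myoblast markers all 6 were expressed, with Des, the muscle intermediate filament gene, at 403, 520.0 and 485 FPKM in the starved, knockdown and control libraries. Members of this list differed in opposite directions after starvation: the determination factor gene Myod1 was at 10.7 FPKM in the starved and 70.1 FPKM in the control library, lower apart, and its relative Myf5 at 29.6 and 16.8 FPKM, higher apart. Markers of other cell types were at or near 0: endothelial markers reached at most 0.209 FPKM, adipocyte markers at most 0.433 FPKM and the neuronal marker Syt1 at most 0.111 FPKM. The macrophage marker Lyz2 was at 0.482, 0.802 and 0.424 FPKM in the starved, knockdown and control libraries, with overlapping intervals, while Emr1, Plin1 and Lep were listed at 0 in all 3 libraries. The exceptions were 3 neuron-list genes and the macrophage-list gene Cd68. Tubb3, a tubulin gene, was at 52.6, 68.3 and 89.7 FPKM in the starved, knockdown and control libraries, lower apart from the control in the starved library. Stmn2, a stathmin gene, was at 42.1, 89.6 and 57.2 FPKM, higher apart from the control in the knockdown library. Syn1 was at 9.18, 8.81 and 9.53 FPKM and Cd68 at 4.10, 1.26 and 2.50 FPKM. The intervals of both genes overlapped those of the control in each treated library, while the Cd68 interval of the starved library lay above that of the knockdown library. The part of such cells in the members' values was not tested.

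In all 3 libraries the ATG8 transcripts stood above those of the ATG4 proteases. The lowest ATG8 member of each library, Gabarapl2 in the starved and knockdown libraries and Gabarapl1 in the control, was 3.56, 3.45 and 3.11 times Atg4b, the highest protease, with intervals apart each time. Without the combined row, the ATG8 sum was 13.0 times the ATG4 sum in the starved library, 8.83 times in the knockdown library and 6.47 times in the control library.

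**Figure D1:**
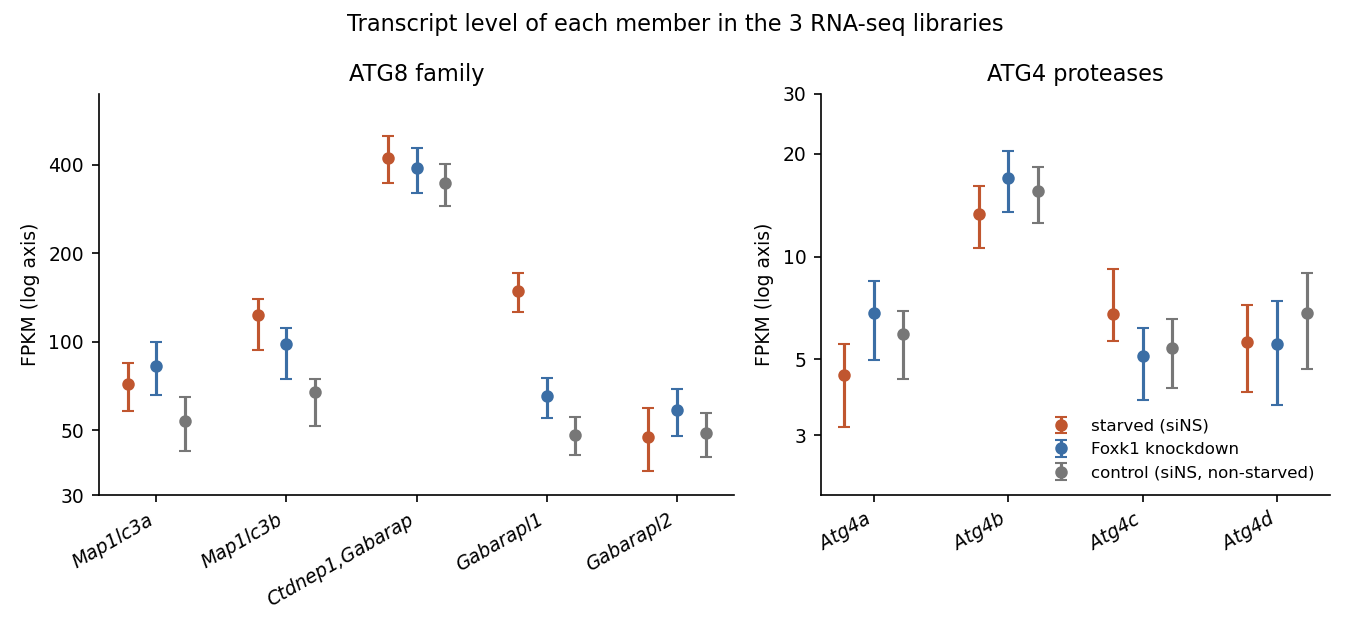
FPKM (log axis) of each member in the starved, knockdown and control libraries, with the authors' 95% intervals as bars and 1 library per group. Gabarapl1 and Map1lc3b in the starved library lie above the control intervals, and the ATG4 intervals of the 3 libraries overlap.

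Gabarapl1, a GABARAP-branch member, was at 149 FPKM (126 to 172) in the starved library, 65.3 FPKM (54.9 to 75.6) in the knockdown library and 48.3 FPKM (41.2 to 55.5) in the control library. The starved interval lay above both others, and the knockdown and control intervals overlapped by 0.53 FPKM. Map1lc3b, which encodes LC3B, the form most used to trace autophagosomes, was at 124 FPKM (93.6 to 139) in the starved library, 98.1 FPKM (74.9 to 111) in the knockdown library and 67.3 FPKM (51.8 to 74.5) in the control library. Both treated libraries lay apart above the control, and their intervals overlapped with each other.

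Map1lc3a, which encodes the related LC3A, was at 71.8 FPKM (58.2 to 84.9) in the starved library, 82.7 FPKM (66.0 to 99.6) in the knockdown library and 53.7 FPKM (42.4 to 65.1) in the control library. Only the knockdown library was apart from the control here, and the starved interval overlapped both others. Gabarapl2, also called GATE-16, was at 47.6 FPKM (36.4 to 59.6), 58.6 FPKM (47.8 to 69.3) and 48.9 FPKM (40.5 to 57.4) in the starved, knockdown and control libraries. Its 3 intervals overlapped. The combined row of Ctdnep1 and Gabarap was at 422 FPKM (346 to 500.0), 389 FPKM (321 to 457) and 346 FPKM (290.3 to 401) in the same order, with all intervals overlapping.

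Among the proteases, Atg4b, whose product is the most active ATG4 enzyme on most ATG8 proteins in mammalian cells, had the highest level. It was at 13.4 FPKM (10.6 to 16.0) in the starved, 17.0 FPKM (13.5 to 20.4) in the knockdown and 15.6 FPKM (12.5 to 18.3) in the control library. Atg4a, whose product favours the GABARAP branch in studies of the human enzyme, was at 4.51 FPKM (3.17 to 5.55), 6.82 FPKM (4.98 to 8.50) and 5.95 FPKM (4.37 to 6.95). Both had overlapping intervals throughout, with the starved library the lowest of the 3.

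Atg4c and Atg4d encode enzymes with weak activity until caspases cleave them, as shown for the human proteins. Atg4c was at 6.77 FPKM (5.67 to 9.19) in the starved, 5.13 FPKM (3.81 to 6.17) in the knockdown and 5.40 FPKM (4.14 to 6.55) in the control library. Atg4d was at 5.62 FPKM (4.02 to 7.23), 5.56 FPKM (3.67 to 7.44) and 6.83 FPKM (4.69 to 8.97) in the same libraries. The intervals of both overlapped between all libraries.

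The order of the levels differed between libraries. In the starved library Gabarapl1 was the highest of the members with a row of their own, followed by Map1lc3b, Map1lc3a and Gabarapl2. In the knockdown library the order was Map1lc3b, Map1lc3a, Gabarapl1 and Gabarapl2, and in the control library Map1lc3b, Map1lc3a, Gabarapl2 and Gabarapl1. All neighbours in the knockdown and control orders had overlapping intervals, as had Gabarapl1 beside Map1lc3b and Map1lc3a beside Gabarapl2 in the starved library. In the starved library Map1lc3b was apart from Map1lc3a, at 1.72 times its level. In each library Atg4b was apart from the next protease, at 1.97, 2.49 and 2.28 times its level in the starved, knockdown and control libraries, and the other proteases overlapped with their neighbours.

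The first comparison set the starved library against the control. Gabarapl1 was higher by a log2 fold change of 1.60, a ratio of 3.08 (2.48 to 3.82), and ranked 88 from the top of 11396 expressed rows. Map1lc3b was higher by 0.87, a ratio of 1.84 (1.37 to 2.45), at the 95.5 percentile. Thus 2 of 9 members stood apart above the control and 0 below it, while the shares over all expressed rows were 12.2% above and 10.9% below. A count of 2 among 9 is close to what those shares give and says nothing of the members as a set. Gabarapl1 alone passed 2-fold, as did 3.12% of all rows upward and 3% downward. At 1.5-fold Gabarapl1 and Map1lc3b passed, 2 of 9 members, beside 10.3% of all rows upward and 9.52% downward.

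The other 7 members had overlapping intervals in this comparison. Map1lc3a had a ratio of 1.34 (1.01 to 1.79), the combined Gabarap row 1.22 (0.952 to 1.56) and Gabarapl2 0.973 (0.713 to 1.31). Of the proteases, Atg4c had a ratio of 1.25 (0.966 to 1.88), Atg4b 0.859 (0.648 to 1.14), Atg4d 0.823 (0.534 to 1.29) and Atg4a 0.758 (0.515 to 1.10). Members with wide intervals had to differ by more to be apart. Given the interval widths, Atg4d needed a ratio of 1.84 or more, or of 0.534 or less. Gabarapl1 needed a ratio of 1.36 or more, or of 0.738 or less. The ratio limits of Gabarapl1 lay wholly above those of Gabarapl2 and Map1lc3a and, by a small margin, above those of Map1lc3b. The median log2 fold change of the 9 members was 0.28, beside -0.01 over all rows. This median was the value of Atg4c, the middle one of the 9. Without the combined Gabarap row the median of the other 8 was 0.12, with 4 above 0 and 4 below.

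**Figure D2:**
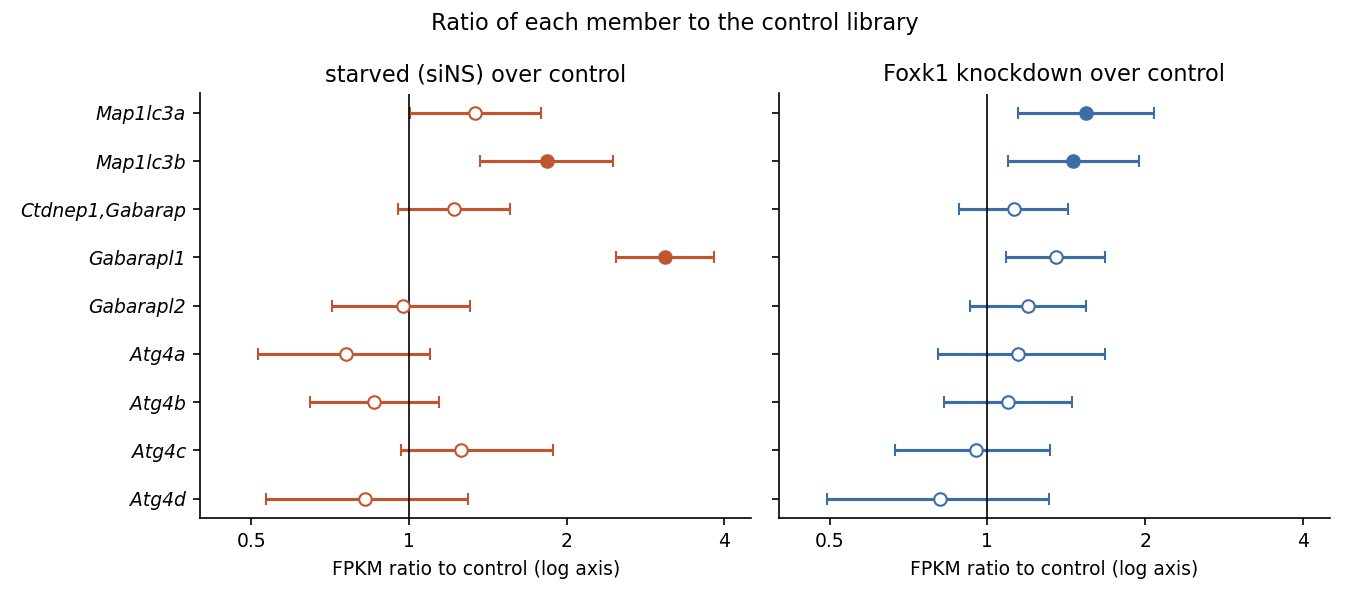
Ratio of FPKM to the control library (log axis) for each member, with the starved library on the left and the knockdown library on the right. Bars carry the authors' 95% intervals to the ratio, and filled points mark members whose intervals were apart: Gabarapl1 (3.08) and Map1lc3b (1.84) in the starved library, and Map1lc3a (1.54) and Map1lc3b (1.46) in the knockdown library.

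The second comparison set the knockdown library against the same control. The 2 LC3 genes were higher apart, Map1lc3a by a log2 fold change of 0.62, a ratio of 1.54 (1.15 to 2.08), and Map1lc3b by 0.54, a ratio of 1.46 (1.09 to 1.95). They ranked 802 and 1032 from the top of 11357 expressed rows. No member was lower apart and none reached 2-fold, while over all rows 8.89% were higher apart and 7.13% lower apart, and 2-fold was reached by 2.61% upward and by 1.45% downward. At 1.5-fold Map1lc3a passed, 1 of 9 members, beside 7.74% of all rows upward and 6.22% downward, which is near the background. The median log2 fold change of the members was 0.17, beside 0.02 over all rows.

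These calls lay close to the line. The lower limit of the knockdown library exceeded the upper limit of the control by 0.896 FPKM for Map1lc3a and by 0.465 FPKM for Map1lc3b. Gabarapl1, with a ratio of 1.35 (1.08 to 1.68), fell short by 0.53 FPKM. The ratio limits of these 3 genes overlapped widely, so the calls do not set the LC3 branch apart from Gabarapl1. Gabarapl2 had a ratio of 1.20 (0.924 to 1.54) and the combined Gabarap row 1.12 (0.882 to 1.43). The proteases had ratios of 1.15 (0.806 to 1.67) for Atg4a, 1.09 (0.828 to 1.45) for Atg4b, 0.951 (0.667 to 1.32) for Atg4c and 0.813 (0.495 to 1.31) for Atg4d.

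Markers of differentiated muscle cells moved with this library. The 8 listed genes, from Myog, which encodes myogenin, to Tnnc1 of the sarcomere, summed to 261 FPKM in the knockdown library and 67.6 FPKM in the control. The 7 that reached 1 FPKM in the control were each higher apart in the knockdown library, beside 8.89% of all rows. Ckm, the muscle creatine kinase gene, was higher apart too, at 2.67 FPKM against 0.324 FPKM, but passed the filter only through the knockdown library. The log2 fold changes of the 8 ran from 0.84 to 2.40. In the starved library the same genes summed to 51.0 FPKM, and Myog was the 1 of 7 expressed that was lower apart. That count is near the 10.9% of all rows. None of the 6 myoblast markers was apart in the knockdown library, which is near the 8.89% higher and 7.13% lower of all rows. The part of differentiation in the LC3 values was not tested.

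**Figure D3:**
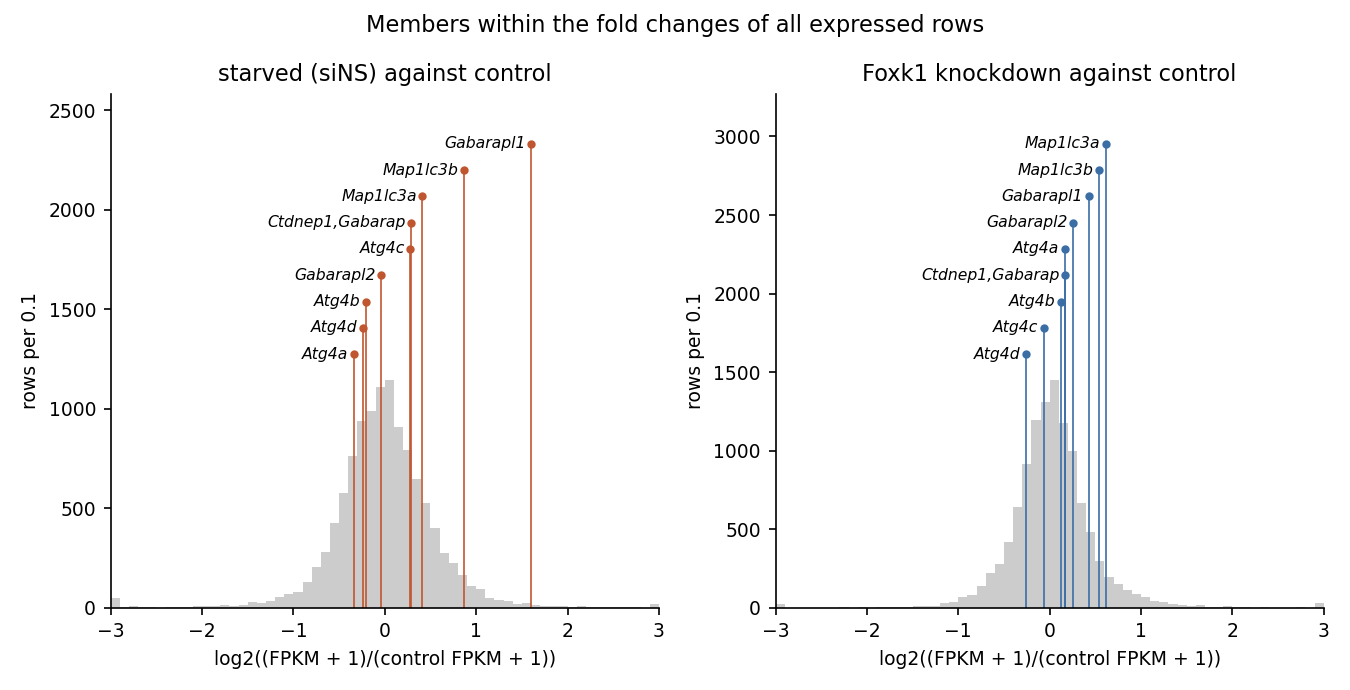
Histogram of log2((FPKM + 1)/(control FPKM + 1)) over all expressed rows in the starved and the knockdown comparison, in steps of 0.1 with values beyond 3 placed in the end bars; lines mark the members. Gabarapl1 stands at 1.60 in the starved comparison, in the upper tail, while the ATG4 genes lie near the centre in both.

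Both comparisons use the same control library, so they are given side by side. Map1lc3b was at 1.84 times the control in the starved and 1.46 times in the knockdown library, Map1lc3a at 1.34 and 1.54 times, Gabarapl1 at 3.08 and 1.35 times, and Gabarapl2 at 0.973 and 1.20 times. Set directly against the knockdown library, a comparison in which both the siRNA and the starvation differ, the starved library had Gabarapl1 higher apart at a ratio of 2.28 (1.83 to 2.86). It was the 1 member of 9 apart, where 13.3% of all rows were higher apart and 13.7% lower apart. The ratio limits of Atg4a, 0.661 (0.436 to 0.964), and Atg4c, 1.32 (1.02 to 2.02), excluded 1 although their intervals overlapped. Against the control, that rule called 18% of all rows higher and 17% lower after starvation, and 14.3% and 11.9% after knockdown. Beside shares of that size, the values of Atg4a and Atg4c, which went in opposite directions, say nothing of the proteases as a set. The share itself was not computed for the direct comparison of the starved with the knockdown library. The ratios of the LC3 genes in that comparison were 1.26 (0.928 to 1.69) for Map1lc3b and 0.867 (0.656 to 1.15) for Map1lc3a.

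The pool of ATG8 transcripts was larger in the starved library. The 4 members with a row of their own summed to 392 FPKM in the starved, 305 FPKM in the knockdown and 218 FPKM in the control library, ratios of 1.80 and 1.40 to the control. With the limits summed over the members, the starved sum (314 to 456) was apart from the control sum (176 to 252) and the knockdown sum (244 to 356) was not. With the combined Gabarap row the ratios were 1.44 and 1.23. That row alone made up 51.9%, 56.1% and 61.3% of the 5-row sum in the starved, knockdown and control libraries.

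The makeup of this pool differed as well. Gabarapl1 held 38.0% of the 4-member sum after starvation, 21.4% in the knockdown library and 22.1% in the control library. Gabarapl2 held 12.1%, 19.2% and 22.4%, and Map1lc3b a nearly equal share of 31.5%, 32.2% and 30.9%. Of the 174 FPKM by which the starved sum exceeded the control, Gabarapl1 gave 57.9% and Map1lc3b 32.4%. Of the 86.4 FPKM by which the knockdown sum exceeded it, Map1lc3b gave 35.6%, Map1lc3a 33.6% and Gabarapl1 19.6%. Shares carry the same intervals as the levels and were not tested.

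The 4 ATG4 transcripts summed to 30.3 FPKM (23.4 to 38.0) in the starved, 34.5 FPKM (26.0 to 42.5) in the knockdown and 33.7 FPKM (25.7 to 40.7) in the control library. These sums overlapped, at ratios of 0.897 and 1.02 to the control. Atg4b held 44.2%, 49.3% and 46.1% of the sum, and Atg4c 22.4%, 14.9% and 16.0%.

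**Figure D4:**
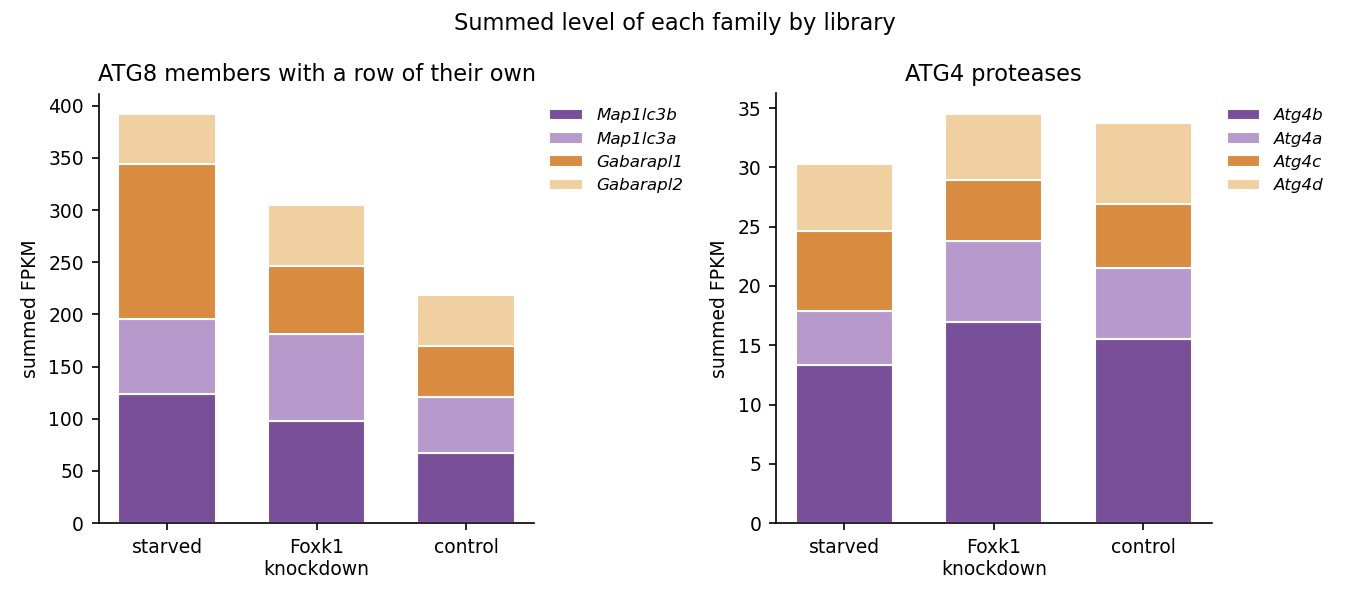
Summed FPKM of the 4 ATG8 members with a row of their own and of the 4 ATG4 proteases, as stacked bars for the starved, knockdown and control libraries. The ATG8 bars reach 392, 305 and 218 FPKM, with the Gabarapl1 segment the tallest in the starved library, and the ATG4 bars reach 30.3, 34.5 and 33.7 FPKM.

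The genes that carry out the next steps of the pathway were listed by role. The conjugation machinery attaches the trimmed ATG8 protein to lipid. None of its 7 genes was apart in either comparison. Of all rows, 12.2% were higher and 10.9% lower apart after starvation, and 8.89% and 7.13% after knockdown, so 0 among 7 says little. The list medians were log2 fold changes of 0.07 after starvation and 0.06 after knockdown. The starved median had no stable sign: it was -0.17 over the 5 genes at 5 FPKM or more, and 0.16 with libraries rescaled to the same total. Atg12, the ubiquitin-like partner of Atg5, had a log2 fold change of 0.42 after starvation and 0.48 after knockdown. In the starved library Atg16l1, which places the conjugation complex on the membrane, had -0.38 and Atg5 -0.34. In the knockdown library the E2-like enzyme genes Atg10 and Atg3 had 0.38 and -0.16.

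Among genes for phagophore lipid and membrane proteins, 3 of 9 expressed were higher apart in the starved library, beside 12.2% of all rows, and 1 of 8 in the knockdown library, beside 8.89%, with none lower apart. The knockdown count is near the share of all rows, and a starved count of 3 among 9 says nothing of the list as a set. Wdr45, which encodes the lipid-binding WIPI4, was at 23.1 FPKM (18.5 to 27.6) in the starved library, 19.9 FPKM (15.7 to 23.9) in the knockdown library and 10.8 FPKM (8.48 to 13.2) in the control library, so both treated libraries were apart above the control. Atg9b, a lipid scramblase gene, was higher by a log2 fold change of 0.74 and the lipid transfer gene Atg2a by 0.53 in the starved library. Atg9b was at 0.964 FPKM in the control and passed the filter of 1 FPKM only through the starved library. With a filter of 5 FPKM, which leaves Atg9b out, 2 of 8 genes were higher apart in the starved library, beside 12.0% of all rows. In the knockdown library Atg2a had 0.36 and Atg2b 0.23, with overlapping intervals. The list medians were 0.39 for the starved and 0.12 for the knockdown library. The starved median depended on the processing: it was 0.26 with a pseudocount of 5 FPKM and 0.50 with libraries rescaled to the same total.

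Of the genes whose proteins bind ATG8 through LC3-interacting regions, 6 of 13 expressed stood apart above the control and 0 below it in the starved library (median 0.41), where all rows gave 12.2% and 10.9%. With libraries rescaled to the same total, this median moved to 0.52 and 8 of 13 were higher apart, beside 15.5% of all rows. The knockdown library had 1 gene above and 1 below (median 0.03), near the 8.89% and 7.13% of all rows. Sqstm1, which encodes the cargo receptor p62, had the largest value in the starved library, a log2 fold change of 1.83, and its intervals overlapped in the knockdown library. Nbr1, another cargo receptor gene, was at 51.5 FPKM (43.3 to 59.7) in the starved, 15.8 FPKM (13.1 to 18.6) in the knockdown and 23.9 FPKM (20.2 to 27.7) in the control library, so it was higher apart in the first and lower apart in the second. Calcoco1, an ER-phagy receptor gene, was at 69.9 FPKM (51.6 to 81.7) in the starved, 72.3 FPKM (55.3 to 90.7) in the knockdown and 27.4 FPKM (21.7 to 33.9) in the control library, higher apart in both. The mitophagy receptor gene Bnip3 was higher apart in the starved library, at 0.73, and had -0.62 with overlapping intervals in the knockdown library.

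The MAP1 chains are microtubule-associated proteins with which LC3 was first isolated. None of the 3 genes was apart: Map1a, Map1b and Map1s had log2 fold changes of -0.49, 0.07 and -0.04 in the starved library and -0.05, 0.16 and -0.01 in the knockdown library. Of 7 genes for autophagosome fusion, Epg5, a tether gene, was the 1 gene higher apart in the starved library, at 0.62, and none was apart in the knockdown library. The SNARE genes Stx17 and Snap29 had -0.40 and -0.38 in the starved library, with overlapping intervals. In the knockdown library Vps41 and Vps39 of the HOPS tether had 0.41 and 0.36, and Snap29 0.36. The fusion list medians were -0.04 for the starved and 0.31 for the knockdown library, and both depended on the processing. The knockdown median was 0.17 with a pseudocount of 5 FPKM and 0.18 over genes at 5 FPKM or more. The starved median was 0.06 with libraries rescaled to the same total. Over all lists, the starved library had 10 of 39 expressed genes apart above the control and 0 below it, and the knockdown library 2 of 38 above and 1 below, with medians of 0.15 and 0.04. The 10 include Atg9b, which passed the filter only through the starved library; without it the count was 9 of 38. The shares of all rows were 12.2% above and 10.9% below in the starved comparison and 8.89% and 7.13% in the knockdown comparison, so the knockdown counts were no larger than those of all rows. The absence of lower genes in the starved library depended on the interval rule: judged by the interval of the log ratio, 15 genes were higher and 4 lower there, and 7 higher and 3 lower in the knockdown library. By that rule the shares of all rows were 18% higher and 17% lower after starvation, and 14.3% and 11.9% after knockdown.

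**Figure D5:**
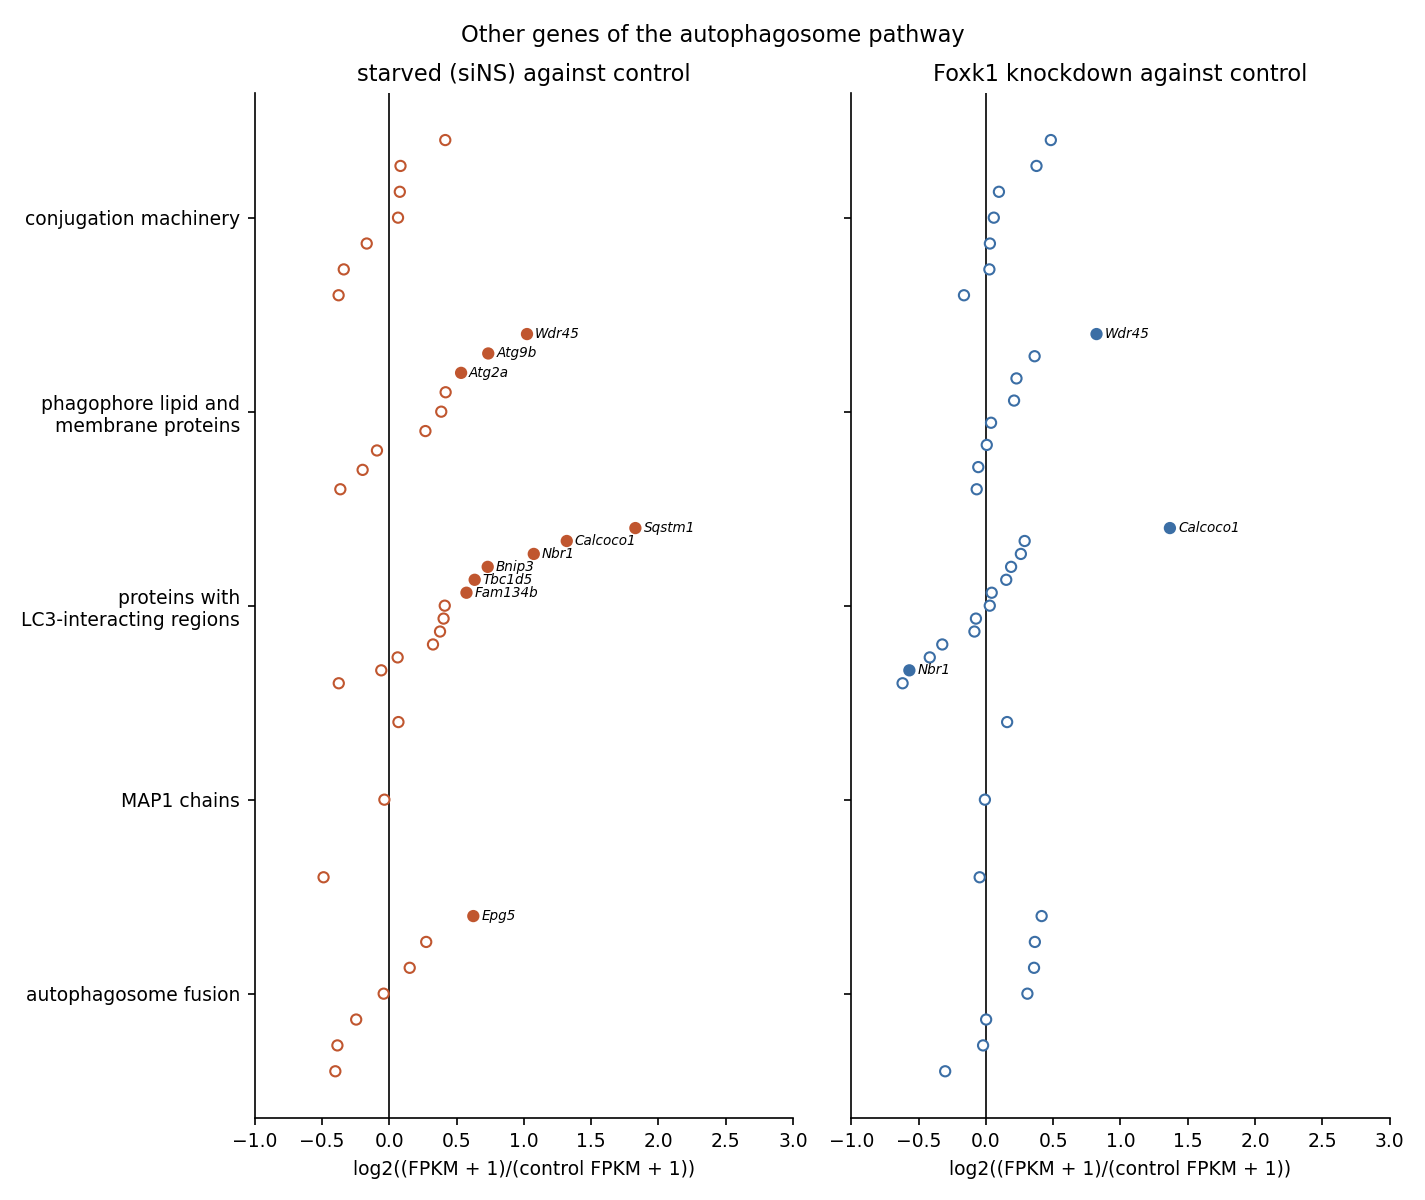
Log2((FPKM + 1)/(control FPKM + 1)) of the listed pathway genes in the starved and the knockdown library, grouped by role, 1 point per gene that reached 1 FPKM in either library of the pair. Filled points are apart from the control: 10 genes, all higher, in the starved library, and Wdr45, Calcoco1 and Nbr1, the last one lower, in the knockdown library.

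Genes with the pattern most like that of Gabarapl1 were sought among 8959 single-gene rows that reached 5 FPKM in at least 1 library, by the Euclidean distance of their 2 log2 fold changes, which rest on 3 libraries and a shared control. The nearest were Ralgds, a Ral exchange factor gene (distance 0.04), Pde4b, a cyclic AMP phosphodiesterase gene (0.07), the scaffold gene Sash1 (0.11), Cnppd1 (0.12) and Ctns, which encodes the lysosomal cystine transporter (0.12). Ralgds was at 35.2 FPKM (28.1 to 41.6) in the starved, 15.5 FPKM (12.1 to 18.9) in the knockdown and 10.9 FPKM (8.68 to 13.3) in the control library. Nearest to Map1lc3b were Smad3, a mediator of TGF-beta signals (0.003), Arhgef10l (0.04), Fmo1, a flavin monooxygenase gene (0.06), Hmox1, which encodes heme oxygenase (0.07), and Gigyf1 (0.07). Smad3 was at 26.7 FPKM (22.5 to 30.9) in the starved, 21.0 FPKM (17.7 to 24.3) in the knockdown and 14.2 FPKM (12.1 to 16.2) in the control library. The distances were small beside the interval widths of these rows, so the choice and order of the nearest genes are not resolved.

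Some members share sequence with copies elsewhere in the genome. RefSeq on GRCm38.p6 lists 15 pseudogenes under names of the families, 8 of them named for Map1lc3, 6 for Gabarapl2 and 1 for Atg4a, and none has a row in the tables. How reads that match both a member and such a copy were assigned is not given in the sources used here, so the levels of Map1lc3a, Map1lc3b, Gabarapl2 and Atg4a are uncertain to that extent.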

How the data were processed

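The 3 RNA libraries were grouped by their titles, 1 library per group. The authors deposited mean FPKM values per gene row and both limits of its 95% interval, per the file headers. Build mm9 is named in the submitters' processing notes, which also name Cufflinks 2.1.1 with Cuffdiff, TopHat2 2.0.9 and Bowtie2 2.1.0. Annotation, interval method and any pooling behind the word mean: not given in the sources used here. FPKM keeps no counts, so depth is unknown and no count test was run.

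Of 22989 rows, 1 with limits in the wrong order was left out; 364 combined several symbols. Fold changes used a pseudocount of 1 FPKM, and rows that reached 1 FPKM in neither library of a pair were left out of that comparison. List genes were matched by symbol or RefSeq synonym, and 40 of 41 were found as 1 row; Wipi1 had several rows and was left out. All members were named, with up to 3 genes of each pathway list that had the largest change per comparison. The 5 genes nearest in pattern to Gabarapl1 and to Map1lc3b were named as well. Other pathway genes named were apart from the control, while cell type markers were named whether apart or not. The members and lists were chosen with earlier results of these data known. Planned protein comparisons were not run, and the ChIP-seq regions on mm9 were not used here. Alternatives covered the pseudocount, filter, scaling, fold and interval rule. The scripts were tested on simulated data (Python 3.11.15, numpy 2.4.6, pandas 2.3.3, matplotlib 3.10.9).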

Additional observations from a re-analysis of the deposited data

How the results depend on the processing

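The members called apart were the same 2 genes in each comparison under both rescalings of the libraries, without a filter and with a filter of 5 FPKM. Judged by the interval of the log ratio, 3 members were apart in each comparison with the control, all higher. This added Map1lc3a in the starved and Gabarapl1 in the knockdown library. By that rule 18% of all rows were higher and 17% lower in the starved library, and 14.3% and 11.9% in the knockdown library. At a threshold of 1.5-fold, 2 members passed in the starved library and 1, Map1lc3a, in the knockdown library, all higher, as were 10.3% and 7.74% of all rows. The members' median in the starved comparison was 0.18 with a pseudocount of 5 FPKM and 0.39 with libraries rescaled to the same total, which moved the median of all rows to 0.09. Without the combined row, an alternative chosen after seeing the data, the members' median was 0.12 after starvation and 0.21 after knockdown. The ATG8 sum in the starved library was 1.80 times the control without the combined row. Calls of listed genes as apart, added over the comparisons, numbered 29 by the interval of the log ratio and 13 by overlap, or 12 without Atg9b. These are counts of calls, in which a gene apart in each comparison is counted in each. TAAACA, chosen after seeing the data, was in promoters of 2 of the 8 members that had one, against 0 for GTAAACA. No paired analysis was possible because each group has 1 library.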
